A study of Homo sapiens with 6 samples.

Results

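The NEDD4 family of ubiquitin ligases and its membrane adaptors was examined in 786-O cells, an established line from a human clear cell renal cell carcinoma. Its 9 genes are the ligases NEDD4, NEDD4L, ITCH, WWP1, WWP2, HECW1 and HECW2 and the adaptors NDFIP1 and NDFIP2. All probe sets that the platform annotation gives exactly 1 of these symbols, current or older, were taken, which gave 39 of the 49395 probe sets in the table: 30 for the ligases and 9 for the adaptors. All 39 were tested, and no filter on low values was applied. The family was picked with earlier results of the same comparison in view, in which NEDD4 and NEDD4L were higher at their brightest probe sets. Values of this comparison are therefore a description of these arrays, and nothing is supported with them.

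The cells, grown in medium with serum, carried a short hairpin RNA (shRNA) against PLEKHO1 in 3 samples (called shPLEKHO1 here) and were controls labelled shNC in 3, and each sample was measured on 1 Affymetrix array. Groups follow the titles and the genotype field, since the treatment text, which describes delivery by lentivirus, is the same for all samples and names only the hairpin against PLEKHO1. The labels name 1 cell line and neither the number of hairpins nor the time after infection, and nothing in them tells whether the replicates were grown apart, so a p-value covers the spread from array to array alone, which may be technical. A difference is the log2(intensity + 1) value with shPLEKHO1 less that with shNC. It is printed ± its standard error (SE, 3 arrays in each group), as moderated by limma. Like limma's p, this SE takes part of its variance from all the probe sets, or gene means, fitted with it. A probe set "rose" or "fell" where limma's p, adjusted over all 44988 probe sets with 1 symbol, was under 0.05. In RNA of whole cultures, fewer cells with a transcript and less transcript per cell cannot be told apart.

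Ligases of this family carry WW domains, which bind proline-rich PY motifs of their substrates, and a HECT domain, whose cysteine takes ubiquitin from a conjugating enzyme and passes it on. Many also have a C2 domain that holds the enzyme inactive and brings it to membranes. NDFIP1 and NDFIP2 are membrane proteins of the Golgi and endosomes whose PY motifs recruit and activate these ligases. In the kidney the family is best known for NEDD4L, which removes the epithelial sodium channel from the cell surface until the kinase SGK1 phosphorylates it and 14-3-3 proteins bind it. PLEKHO1, also called CKIP-1, binds and activates SMURF1, a close relative of the family.

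The stretches of 250 bases before the annotated start are shown for NEDD4, all of whose probe sets rose, and for the adaptors, each of which had probe sets that fell. RefSeq's table (build GRCh38.p14) lists 3 starts of NEDD4, of which a pair lie 5 bases apart; the first line below is 1 of that pair and the second is the distant start. Capitals mark matches on either strand. In the first line these are to the AP-1 motif, taken loosely here as TGANTCA with any base at N. In the other lines they are to the GC box (GGGCGG). No matches overlap.
NEDD4, chr15:55917132-55917381, minus strand: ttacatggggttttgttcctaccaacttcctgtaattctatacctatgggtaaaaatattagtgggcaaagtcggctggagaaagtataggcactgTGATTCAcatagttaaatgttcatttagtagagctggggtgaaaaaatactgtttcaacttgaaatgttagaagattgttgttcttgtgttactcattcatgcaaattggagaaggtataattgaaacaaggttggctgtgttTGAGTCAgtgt
NEDD4, chr15:55993613-55993862, minus strand: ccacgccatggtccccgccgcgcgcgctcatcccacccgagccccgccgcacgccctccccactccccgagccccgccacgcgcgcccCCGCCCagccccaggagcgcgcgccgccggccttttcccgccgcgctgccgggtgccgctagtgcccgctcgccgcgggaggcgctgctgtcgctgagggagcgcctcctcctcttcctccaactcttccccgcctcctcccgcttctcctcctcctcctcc
NDFIP1, chr5:142108529-142108778, plus strand: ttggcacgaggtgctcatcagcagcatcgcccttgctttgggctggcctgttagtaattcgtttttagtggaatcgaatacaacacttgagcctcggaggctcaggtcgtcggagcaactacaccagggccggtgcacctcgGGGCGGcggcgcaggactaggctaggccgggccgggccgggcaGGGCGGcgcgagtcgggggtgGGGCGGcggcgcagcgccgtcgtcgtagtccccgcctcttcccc
NDFIP2, chr13:79480905-79481154, plus strand: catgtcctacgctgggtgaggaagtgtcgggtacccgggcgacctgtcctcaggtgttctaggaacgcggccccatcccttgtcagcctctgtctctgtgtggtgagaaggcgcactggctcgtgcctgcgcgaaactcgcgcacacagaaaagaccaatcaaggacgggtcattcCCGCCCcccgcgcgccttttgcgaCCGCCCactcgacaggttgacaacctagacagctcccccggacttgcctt

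The 2 NEDD4 windows differ in composition. The first is 36.4% G or C with 1 CpG, and the second is 78.0% G or C with 35 CpG, where the median of 34943 windows of this length was 58.0% and 11 CpG. The first holds 2 AP-1 matches, which begin 154 and 11 bases before the start, and no GC box; the window of its twin start, 5 bases away, holds 1 (149 bases before that start), since it ends within the match nearest the start. The second window holds 1 GC box and no AP-1 match. NDFIP1 has 3 GC boxes and NDFIP2 has 2, and neither has an AP-1 match. GC boxes are also in the windows of ITCH, HECW1 and HECW2, and in none of WWP2 or NEDD4L. ITCH, WWP2, HECW1 and HECW2 have no AP-1 match either. Over all windows, 6.6% held the AP-1 motif, 42.5% the GC box and 10.8% the TATA box TATAAA, searched in the same way, which was in none of the 17 windows of the 8 family genes found in the table. The 5 windows of NEDD4L hold 2 to 6 CpG each, and 1 of them an AP-1 match. A match in these letters is a description and shows no binding.

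The targeted gene was lower on the shPLEKHO1 arrays, by 1.25-fold (a change of -19.85%) at the only PLEKHO1 probe set tested. PLEKHO1 intensity was 135, 143 and 126 with shNC and 110, 116 and 97.4 with shPLEKHO1 (log2 difference of -0.32 ± 0.08), so the groups did not overlap, and the exact two-sided permutation test gave p = 0.1, the smallest that 3 against 3 arrays allow. Array medians ran from 55.7 to 57.1. Of 8 listed markers of the renal line, 7 were measured, among them PAX8, which fell (group means of 424 for shNC and 354 for shPLEKHO1), and VIM (14741 and 15448), which did not pass. Their sum was 22181 to 22345 with shNC and 24486 to 24895 with shPLEKHO1; EPAS1, KRT18 and KRT8 rose (log2 differences of 0.54, 0.52 and 0.32), PAX2 fell (-0.33) and CDH2 did not pass (0.05). Summed over the measured markers, leukocyte genes (4 of 5 measured) read 164 to 173 with shNC and 174 to 204 with shPLEKHO1, endothelial genes (3 of 3) 135 to 160 and 133 to 139, and fibroblast genes (3 of 3) 71.7 to 74.6 and 89.2 to 104. The fibroblast sum moved with LUM, at 25.7 and 45.8, while DCN stayed at 10.2 and 10.4; no marker was listed at 0, and the part of these markers in the results below was not tested.

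Across the family 13 probe sets rose, 8 fell and 18 did not pass, so 21 of 39 were called, beside 33.0% of all probe sets tested (17.3% rose and 15.7% fell). The rule used this comparison, so nothing is read from the difference. The median log2 difference was 0.10 over the 39 probe sets and 0.01 over all probe sets. Ligase and adaptor probe sets are described apart: of the 30 for ligases 12 rose and 4 fell (median 0.14), and of the 9 for adaptors 1 rose and 4 fell (median -0.01). The deposited intensities of the groups did not overlap in 24 of the 39, 16 higher and 8 lower with shPLEKHO1, beside 43.0% of all probe sets. In 4 of the 9 genes (NEDD4L, ITCH, WWP2 and NDFIP1) some probe sets rose and others fell, beside 3.93% of all 11734 genes with several probe sets. The 3.93% is not matched for the number of probe sets per gene, which was 7, 4, 8 and 5 in these genes. The rises in WWP2 and NDFIP1 were also lost in 5 and 8 of the alternatives described below. Nothing is therefore read from this contrast. Nearest to the threshold were a probe set of NDFIP1 inside it (adjusted p = 0.0452) and a probe set of WWP1 outside it (adjusted p = 0.0507).

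**Figure D1:**
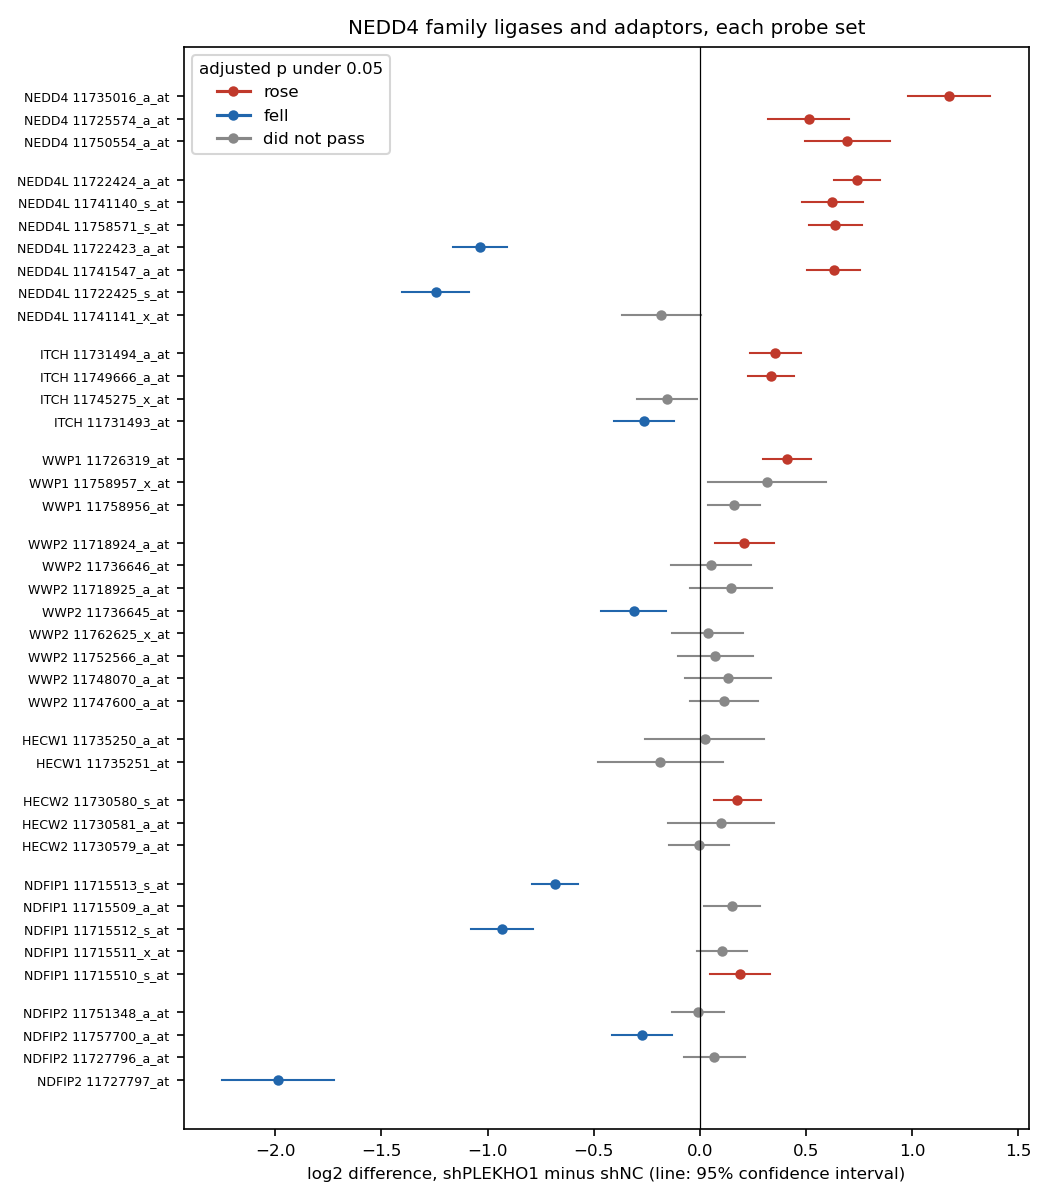
Log2 difference (shPLEKHO1 minus shNC, x axis) of each of the 39 probe sets, with 95% confidence intervals from limma and n = 3 arrays per group; genes are stacked from the ligases to the adaptors, with the brightest probe set of each gene on top. All probe sets of NEDD4 and WWP1 lie right of 0. Those of every other gene lie on both sides, and the lowest value is a NDFIP2 probe set at -1.99.

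NEDD4, the founding member, marks membrane receptors, growth factor signalling proteins and endocytic proteins with ubiquitin. All 3 of its probe sets rose. The brightest (11735016_a_at) read 65.8, 55.0 and 58.7 with shNC and 128, 150 and 129 with shPLEKHO1, so each shPLEKHO1 array was above every shNC array. Its mean went from 59.8 ± 5.49 to 136 ± 12.3 (SD, n = 3), a 2.25-fold rise (1.17 ± 0.08). The other probe sets rose less: 11725574_a_at went from 66.7, 57.4 and 73.1 to 93.3, 94.2 and 93.0 (0.51 ± 0.08), and 11750554_a_at from 55.3, 44.6 and 51.3 to 80.0, 86.9 and 77.4 (0.69 ± 0.09). None of the 3 overlapped between groups. Within an array, the log2 value of 11735016_a_at less that of 11725574_a_at was -0.02, -0.07 and -0.31 with shNC and 0.46, 0.66 and 0.47 with shPLEKHO1. These are the NEDD4 probe sets with the highest and the lowest difference, so this value had to rise and is a description. All 3 NEDD4 probe sets remained called in all 14 alternatives run.

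NEDD4L, the ligase that restrains sodium uptake in renal epithelium, had 7 probe sets, of which 4 rose and 2 fell. The brightest (11722424_a_at) read 285, 281 and 284 with shNC and 459, 479 and 477 with shPLEKHO1 (0.74 ± 0.05). The next, 11741140_s_at, read 281, 264 and 297 and then 431, 453 and 406 (0.62 ± 0.06). The other 2 that rose did so by much the same amount, 11758571_s_at from 223, 204 and 224 to 337, 350 and 321 (0.64 ± 0.05) and 11741547_a_at from 66.5, 64.5 and 62.5 to 98.1, 99.8 and 103 (0.63 ± 0.05). In these 4 every shPLEKHO1 array was the higher. Those that fell did so by over 2-fold. Probe set 11722423_a_at read 184, 183 and 180 with shNC and 91.3, 89.8 and 82.5 with shPLEKHO1, a 2.05-fold fall (-1.04 ± 0.05). Probe set 11722425_s_at read 76.7, 73.0 and 84.3 and then 35.5, 30.6 and 31.2, a 2.37-fold fall (-1.25 ± 0.07). Again the groups were apart, with every shPLEKHO1 array the lower. The dimmest (11741141_x_at) was at -0.18 ± 0.08 and did not pass, with overlapping groups; it was designed on the same sequence record as 11741140_s_at, which rose.

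Within an array the distance between the NEDD4L probe set with the highest difference (11722424_a_at) and that with the lowest (11722425_s_at) was 1.84, 1.95 and 1.74 log2 units with shNC and 3.72, 3.87 and 3.89 with shPLEKHO1. Because the pair was picked by these differences, the distance had to widen and is a description. The 6 calls of NEDD4L were kept in all 14 alternatives. The mean over its 7 probe sets was 0.02 ± 0.04 and did not pass (limma adjusted p = 0.697). Which transcripts of the gene each probe set reads is not used here. Because each probe set binds with its own strength, levels are compared between arrays and not between probe sets or genes.

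**Figure D2:**
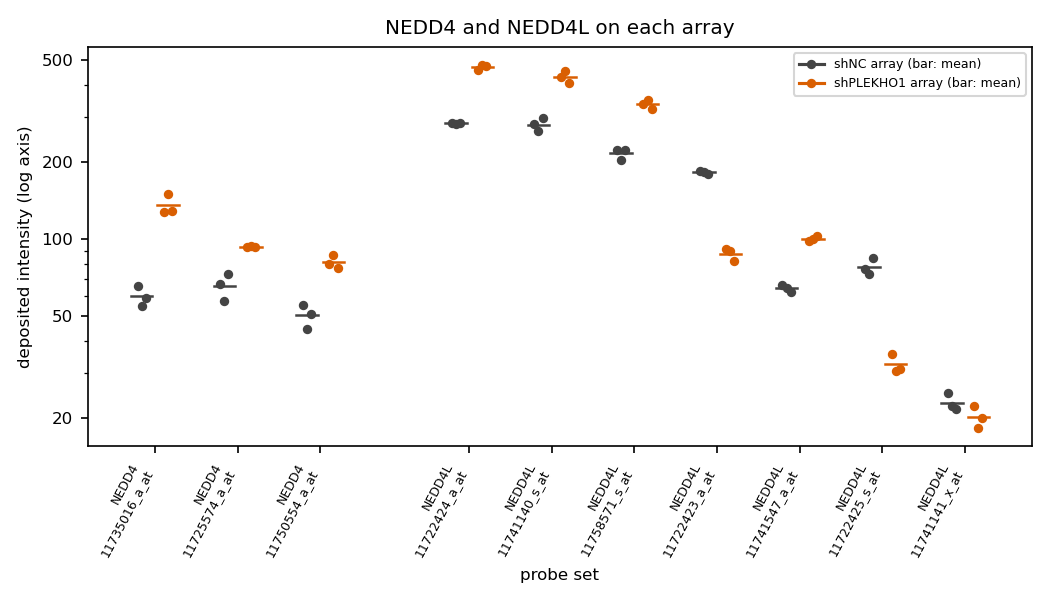
Deposited intensity (log axis) of every NEDD4 and NEDD4L probe set on each of the 6 arrays, with points for arrays and bars for the mean of 3. For NEDD4 the shPLEKHO1 points lie above the shNC points in all 3 probe sets; for NEDD4L they lie above in 4, below in 2 and overlap in 1.

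ITCH, which ubiquitinates JUNB and other regulators of lymphocyte activation and cell death, rose by its brighter pair of probe sets. The brightest (11731494_a_at) read 544, 498 and 522 with shNC and 688, 677 and 650 with shPLEKHO1 (0.36 ± 0.05), and 11749666_a_at read 342, 315 and 327 and then 411, 417 and 410 (0.34 ± 0.05). Neither overlapped between groups. The dimmest (11731493_at) went the other way, from 57.5, 61.1 and 63.1 to 48.0, 49.3 and 52.3 (-0.26 ± 0.06). The remaining one, 11745275_x_at, was at -0.15 ± 0.06 and did not pass, and the mean over all 4 was 0.07 ± 0.04 (limma adjusted p = 0.199).

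WWP1 targets transcription factors and receptors such as KLF5 and ERBB4. Its brightest probe set (11726319_at) rose from 538, 491 and 518 to 670, 698 and 702, a 1.33-fold change (0.41 ± 0.05). Both others, designed on 1 shared sequence record, had no overlap between groups and lay in the same direction but did not pass, at 0.32 ± 0.12 (adjusted p = 0.0812) and 0.16 ± 0.05 (adjusted p = 0.0507). Without shNC replicate 1 both passed (adjusted p = 0.0157 and 0.0340), in ranges of 0.0157 to 0.168 and 0.0288 to 0.162 over the alternatives. The mean of the 3 probe sets rose by 0.30 ± 0.06.

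WWP2, a ligase of the developing skeleton and of stem cell factors, differed little. Of its 8 probe sets 1 rose, 1 fell and 6 did not pass. The brightest (11718924_a_at) read 191, 207 and 201 with shNC and 226, 227 and 232 with shPLEKHO1 (0.21 ± 0.06, limma adjusted p = 0.0288). This rise was not called without shNC replicate 1 (adjusted p = 0.0806) or 3 (0.0684), or without shPLEKHO1 replicate 1 (0.0736) or 3 (0.0935), or with a replicate block (0.0663), in a range from 0.00703 to 0.0935. Probe set 11736645_at fell from 55.5, 55.0 and 60.3 to 43.9, 48.9 and 43.7 (-0.31 ± 0.07) and was kept in all 14 alternatives. The 6 others overlapped between groups and lay between 0.04 and 0.15; 1 of them, 11718925_a_at, passed without shPLEKHO1 replicate 2 (adjusted p = 0.0388, range 0.0388 to 0.545).

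HECW1 and HECW2 are larger relatives, best known from neurons and endothelium. Neither HECW1 probe set passed, at 0.02 ± 0.12 and -0.19 ± 0.13 (limma adjusted p = 0.920 and 0.329). Intensities of the dimmer one were 11.3, 13.6 and 12.3 with shNC and 11.3, 12.9 and 8.65 with shPLEKHO1. The array's 23 background control probe sets read from 4.45 to 2293 by their GC content, and that of the family's probes is not known here, so no probe set is called above or below background. HECW2's brightest probe set (11730580_s_at) rose from 51.2, 52.4 and 51.1 to 57.1, 59.1 and 57.8, which is 1.13-fold (0.18 ± 0.05, limma adjusted p = 0.0230). The call was lost when shNC replicate 2 was left out (adjusted p = 0.0527), or shNC replicate 3 (0.0811), or shPLEKHO1 replicate 2 (0.0615) or 3 (0.0695), with a variance trend and robust fit together (0.0938), and with a replicate block (0.0735), in a range from 0.0110 to 0.0938. The other HECW2 probe sets overlapped between groups (0.10 ± 0.11 and 0.00 ± 0.06), and 1 of them was at means of 9.62 and 9.68.

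The adaptors fell at some probe sets and not at others. NDFIP1 has 5 probe sets, and the brightest (11715513_s_at) read 1627, 1536 and 1591 with shNC and 1002, 1002 and 992 with shPLEKHO1, a 1.61-fold fall (-0.68 ± 0.05). Probe set 11715512_s_at fell 1.91-fold, from 257, 227 and 234 to 115, 129 and 128 (-0.93 ± 0.06). In both, every shPLEKHO1 array was below every shNC array. The other 3 were designed on 1 shared sequence record and were slightly higher, at 0.15 ± 0.06, 0.10 ± 0.05 and 0.19 ± 0.06. Of these only the last (11715510_s_at) passed (limma adjusted p = 0.0452). It was lost in 8 of 14 alternatives, among them without shNC replicate 2 (adjusted p = 0.141) or 3 (0.0730) and without shPLEKHO1 replicate 1 (0.131), 2 (0.0630) or 3 (0.0899), in a range from 0.0244 to 0.141. The 2 that fell share a record neither with these 3 nor with each other. Within an array, the log2 value of 11715510_s_at less that of 11715512_s_at went from a mean of -0.99 ± 0.06 with shNC to 0.13 ± 0.13 with shPLEKHO1 (SD, n = 3). These are the NDFIP1 probe sets with the highest and the lowest difference, so this value had to rise and is a description. The mean over the 5 probe sets was -0.23 ± 0.04, and their median was 0.10.

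NDFIP2, the second adaptor, held the log2 difference furthest from 0 among the 39 probe sets. Probe set 11727797_at read 70.8, 60.0 and 81.9 with shNC and 19.1, 17.2 and 15.1 with shPLEKHO1, a 3.96-fold fall (-1.99 ± 0.11). The groups were far apart, at means of 70.9 ± 10.9 and 17.1 ± 1.98 (SD, n = 3). At such low intensities the size depends on the background, which is not known for this probe set, and on the pseudocount: it was -2.05 with none and -1.39 with one of 16. Probe set 11757700_a_at fell from 372, 363 and 376 to 281, 315 and 323 (-0.27 ± 0.06). The remaining pair overlapped between groups and did not pass: 11751348_a_at was at -0.01 ± 0.05, with a 95% confidence interval from -0.13 to 0.11, and 11727796_a_at at 0.07 ± 0.06, from -0.08 to 0.21. Both falls were kept in all 14 alternatives, that of 11727797_at between -2.11 and -1.39. The mean over the 4 probe sets was -0.55 ± 0.04, and their median was -0.14.

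**Figure D3:**
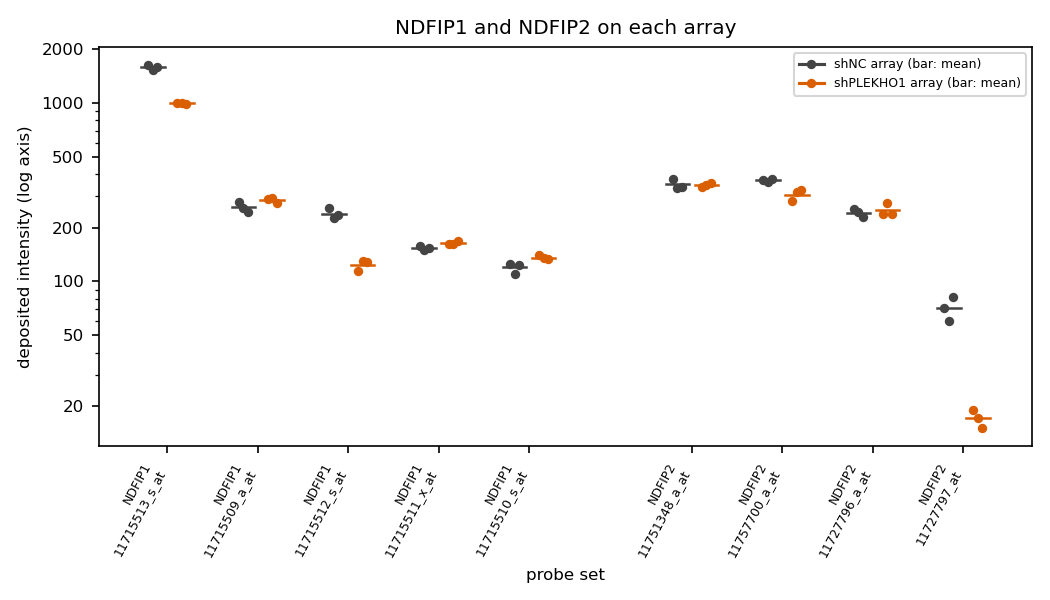
Deposited intensity (log axis) of every NDFIP1 and NDFIP2 probe set on each of the 6 arrays, with bars for the mean of 3. The shPLEKHO1 points lie below the shNC points in 2 probe sets of each gene, by the widest margin in NDFIP2 11727797_at (means of 70.9 and 17.1).

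The partners of the family were read from a list of 80 genes by role, at the brightest probe set of each; 69 were measured and 11 are not analysed here. Of the 69, 21 rose, 13 fell and 35 did not pass. Of all 18132 genes read in this way, 33.2% were called (17.6% rose and 15.6% fell). The median log2 difference was 0.08, against 0.01 over all genes. The list was written with results of these arrays known, and nothing is read from its counts, in total or by role. SMURF1, the relative that PLEKHO1 binds, rose 1.55-fold, from 131, 132 and 149 to 205, 228 and 205 (0.63 ± 0.07), and its other probe set rose too (0.31 ± 0.09). SMURF2 was at 0.10 ± 0.06 and did not pass, while the dimmest of its 3 probe sets fell (-0.27 ± 0.08), at means of 10.9 and 8.98. Of 6 listed conjugating enzymes only 2 were measured, UBE2D4 (0.09 ± 0.05) and UBE2E3 (-0.05 ± 0.06), and neither passed. Nothing is said here of the others.

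Among 13 measured kinases, 14-3-3 proteins and other regulators of the ligases, 4 rose, 3 fell and 6 did not pass. Over all genes, 17.6% rose and 15.6% fell. SGK1, the kinase that switches NEDD4L off in the aldosterone response, read 187, 174 and 171 with shNC and 428, 431 and 401 with shPLEKHO1, a 2.38-fold rise (1.25 ± 0.05). All 4 SGK1 probe sets rose, by 1.04 to 1.41. Its relative SGK2 went the other way: 98.5, 85.0 and 83.8 became 26.1, 45.9 and 37.1, a 2.48-fold fall (-1.31 ± 0.19), and all 4 of its probe sets fell, by -0.56 to -1.31. Neither kinase had overlapping groups at its brightest probe set. The 14-3-3 proteins went both ways: of 7 measured, YWHAH (-0.26 ± 0.05) and YWHAG (-0.21 ± 0.05) fell, YWHAE (0.25 ± 0.06) and YWHAB (0.17 ± 0.05) rose, and YWHAQ (0.11 ± 0.05), YWHAZ (0.18 ± 0.07) and SFN (0.05 ± 0.07) did not pass. All but YWHAH were named after their values were seen.

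Of 23 other measured adaptors and binding partners 5 rose, 6 fell and 12 did not pass, beside 17.6% and 15.6% of all genes that rose and fell. TXNIP, an arrestin-like protein with PY motifs that restrains glucose uptake and is degraded through ITCH, read 900, 877 and 869 with shNC and 482, 518 and 488 with shPLEKHO1, a 1.79-fold fall (-0.84 ± 0.05). All 5 TXNIP probe sets fell. The lysosomal membrane protein LAPTM4B was bright and fell 1.59-fold, from 4446, 4219 and 4110 to 2737, 2551 and 2715 (-0.67 ± 0.05), with all 3 probe sets down. Its relative LAPTM5, which binds NEDD4, rose by its brighter probe set (0.67 ± 0.05), and the other was at 0.13 ± 0.06 and did not pass.

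Substrates numbered 29 measured genes, of which 11 rose, 4 fell and 14 did not pass. The shares over all genes were 17.6% rose and 15.6% fell, and nothing is read from the difference. JUNB, the AP-1 subunit that ITCH degrades, went from 159, 143 and 161 to 234, 288 and 244 (0.73 ± 0.08). SLC11A2, the iron transporter controlled through the NDFIP adaptors, rose from 219, 224 and 225 to 365, 366 and 366 at its brightest probe set (0.72 ± 0.05); of its 6 probe sets 3 rose and 1 fell. SMAD3, a signal carrier of TGF-beta that NEDD4L can mark, depended on the probe set read. Its brightest went from 865, 818 and 857 to 1352, 1452 and 1369 (0.71 ± 0.05), and the next brightest from 1332, 1291 and 1341 to 804, 816 and 801 (-0.71 ± 0.05). Of the 5 SMAD3 probe sets 3 rose and 2 fell, none with overlapping groups. The sodium channel subunits SCNN1A, SCNN1B and SCNN1G, the classic substrates of NEDD4L, are named after their values were seen. They did not pass at their brightest probe sets, which were dim, with shNC means of 47.0, 23.1 and 18.2, and the other SCNN1A probe set fell.

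**Figure D4:**
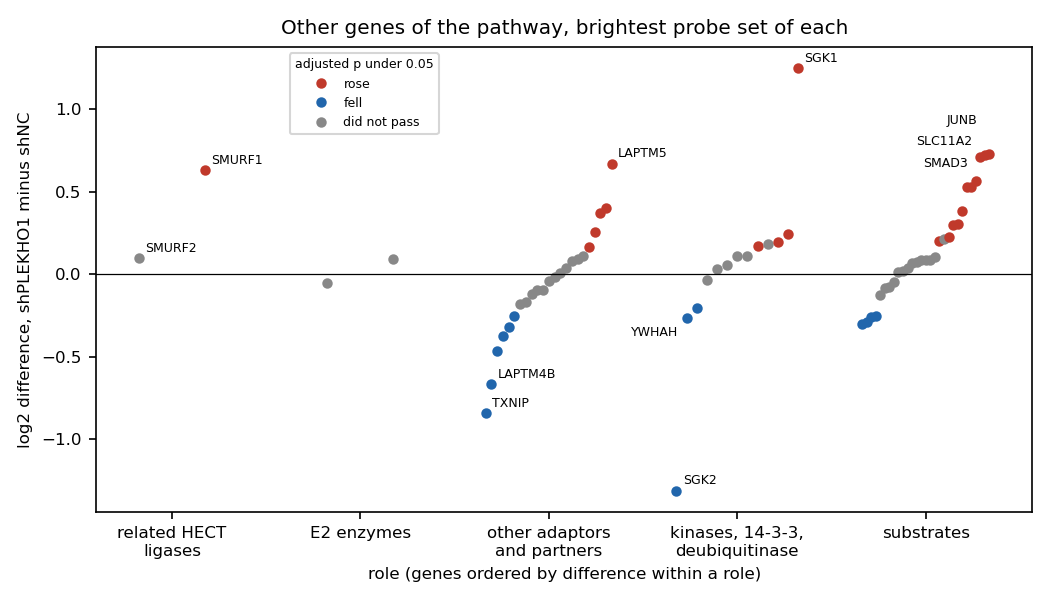
Log2 difference (shPLEKHO1 minus shNC) of the brightest probe set of each of 69 measured pathway genes, grouped by role and coloured by call. SGK1 (1.25) and SGK2 (-1.31) are the outermost points, and the conjugating enzymes, of which 2 of 6 listed were measured, lie near 0.

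Genes with a pattern like that of NEDD4 were sought among 8999 genes outside the lists with a mean above the median, by the root mean square difference over the 6 arrays between log2 values taken relative to the shNC mean. The nearest were BLTP3B (0.06), PRKCH (0.06), FMN1 (0.08), GBP1 (0.08) and RPUSD4 (0.08). PRKCH codes for protein kinase C eta and GBP1 for an interferon-induced GTPase. PRKCH read 240, 210 and 228 with shNC and 499, 592 and 497 with shPLEKHO1 (1.22 ± 0.07), with the second array of that group the highest, as for NEDD4. The measure picks genes that are like NEDD4 on each of the 6 arrays. Their rise and the order of arrays within a group are therefore a description.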

How the data were processed

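RNA of 786-O cells was read on 6 Affymetrix arrays, 3 per shRNA. Per the submitters' processing notes, the software was Affymetrix Expression Console, of which no version is given in the sources used here. Whether the deposited values were already normalized was not tested, so the quantile normalization below may have been applied to normalized values. With no normalization here, 20 family probe sets were called. Deposited numbers are linear intensity values, 1 per probe set and array, from 4.33 to 19770. Array medians of 55.7 to 57.1 and the number of arrays limit the precision; an array has no read depth.

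Values were taken as log2(intensity + 1), quantile normalized over 49395 probe sets, as the plan named for linear values, and tested by limma 3.58.1 (lmFit, eBayes; R 4.3.3), without covariates, over 44988 probe sets with 1 symbol, with Benjamini-Hochberg adjustment. Background left in the values and the pseudocount of 1 understate changes of dim probe sets. Symbols were updated through Entrez identifiers for 44961 probe sets (RefSeq, GRCh38.p14). The steps were tested on simulated data. Of 50 changes of each size, 2 were recovered at 0.25 log2 units, 34 at 0.5, 45 at 1 and 50 at 2. Small differences that did not pass can therefore be changes that were missed. The simulation gave 134 calls, far fewer than the arrays, so its shares need not hold for them. Members, lists and tests were chosen with earlier results of these data known. NEDD4 and NEDD4L are named with every probe set, other members with the brightest and any called, pathway genes as up to 3 called per role with the largest difference, beside SMURF1 and SMURF2. Alternatives were median centring, no normalization, no pseudocount or one of 16, leaving out the lowest 30%, a variance trend with a robust fit, array weights, a replicate block, each array left out, and the mean of a gene's probe sets.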

Additional observations from a re-analysis of the deposited data

How the results depend on the processing

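When each gene was read as an average over its probe sets and not at the brightest, 4 of the 9 family genes changed, against 7: NEDD4 and WWP1 rose and NDFIP1 and NDFIP2 fell. NEDD4L, ITCH, WWP2 and HECW2 were called at the brightest probe set and not by the mean, and NDFIP2 the other way round. The mean joins probe sets with unlike differences: those of NEDD4L lay from -1.25 to 0.74. Those of NDFIP2 lay from -1.99 to 0.07, with a median of -0.14. For NDFIP1, which fell by the mean, the median was 0.10. Why probe sets of a gene differ was not tested. The number of called family probe sets (21) ranged from 18 to 23 over 14 alternatives, and from 18 to 22 when 1 array was left out; called pathway genes (34) ranged from 29 to 40 over the same alternatives and were 35 with the mean of probe sets. No called probe set changed sign in any of them. Of 544 values of single probe sets under an alternative, 19 lost a call and 10 gained one. Whether the replicate number shared by the groups pairs the arrays is not known. Deviations of same-numbered arrays from their group means correlated at -0.15, -0.15 and -0.04, which cannot decide it with so few arrays. With a replicate block 18 family probe sets were called. Background under each probe set is not known here, which limits every dim value, among them those of HECW1, the sodium channel subunits and, with shPLEKHO1, NDFIP2 11727797_at and NEDD4L 11722425_s_at.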
